A study of Mus musculus with 6 samples.

Results

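The genes described here are mouse deubiquitinase genes of the USP (ubiquitin-specific protease), OTU (ovarian tumour protease) and UCH (ubiquitin C-terminal hydrolase) families. They were chosen by symbol from the deposited gene table, as protein-coding genes whose names start with Usp and a number, Otud or Otub, or read Uchl1 to Uchl5. Usp18 and genes on the X and Y chromosomes were left out. Members of these families with other symbols, such as Cyld and Tnfaip3, fall outside the choice. The choice gave 61 genes, 49 named Usp, 8 named Otud or Otub and 4 named Uchl, of 55232 features and 22046 protein-coding genes in the table. One of them, Usp6nl, carries the prefix but encodes a GTPase-activating protein for Rab5 and not a protease. The rule itself used no expression values, but it was set with earlier results of these data known.

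The study sequenced RNA from mouse pulmonary microvascular endothelial cells that formed the lower compartment of a co-culture lasting 12 h. The labels call these cells a cell line. In the repletion group (n = 3) the partner was TCMK-1, a mouse kidney tubular epithelial line, which had been depleted of ATP and had then regained it. In the control group (n = 3) the partner was untreated TCMK-1. The comparison asks how the endothelial cells differ when the kidney cells across the chamber have gone through depletion and repletion, and both groups share the co-culture itself. No label tells whether the samples of a group were grown as separate cultures. If they were not, the p-values below rest on technical spread between samples.

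Ubiquitin is attached to proteins by E1, E2 and E3 enzymes and removed by deubiquitinases. USP enzymes form the largest family of deubiquitinases and mostly recognise particular substrates, many OTU enzymes prefer particular ubiquitin chain types, and UCH enzymes release small adducts or, as UCHL5 does, act at the proteasome. In endothelial cells ubiquitin controls, among others, NF-kB signalling and the turnover of surface receptors and junction proteins.

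The libraries held 15582349 to 17817618 counts, and 17899 to 22130 features had at least 1 read. Of 10 endothelial markers, 9 were tested, and their summed level was 2430 to 2890 CPM (reads scaled to library size) in repletion against 2270 to 2520 CPM in control. Of the 9, 4 rose (Erg, Eng, Tek and Egfl7) and none fell. Cldn5, a junction protein of endothelial cells, had a level near 0. Tubular markers summed to 8.27 to 14.6 CPM in repletion and 7.15 to 9.36 CPM in control, and Umod, Slc34a1, Krt18 and Epcam were at 0. Leukocyte markers summed to 223 to 311 CPM in repletion and 378 to 416 CPM in control, nearly all of it Cd68, which fell by 0.63 on the log2 scale. Fibroblast and mural markers summed to 17.6 to 25 CPM in repletion and 20.4 to 23 CPM in control, with Lum at 0. Lung epithelial markers summed to 0.906 to 1.41 CPM in repletion and 0.0561 to 0.691 CPM in control, and Sftpc, Hopx, Nkx2-1 and Scgb1a1 were at 0. The part of other cell types in the results was not tested.

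Of the 61 genes, 56 passed the filter on low counts and were tested with edgeR's quasi-likelihood test. P-values were adjusted by Benjamini-Hochberg over all 13804 tested features, and an adjusted p under 0.05 passed. In repletion, 16 of the 56 rose and 10 fell, and 30 did not pass. Over all tested features 20.5% rose and 19.2% fell, or 39.7% in either direction. The share of the genes that rose (28.6%) lay above that background and the share that fell (17.9%) close to it. That background is not matched for gene length, and 3 of the 16 that rose are Usp17-like genes with uncertain counts. Among tested protein-coding features alone, 21.2% rose and 20.8% fell. The repletion and control libraries did not overlap for 30 of the 56, against 50.3% of all tested features. The median log2 fold change was 0.20 for the 56 genes and 0.00 for all features. The split depended on the treatment of gene length, as did that of all features. With each library's trend with length and GC content removed, 12 rose and 19 fell, the median was 0.04 and that of all features -0.09. Over all features 16.2% rose and 25.9% fell in that fit. With library size alone as scaling, 20 rose and 7 fell, while 23.3% of all features rose and 15.9% fell. These shares of all features are the background for the counts of smaller groups below, each for its own fit.

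**Figure D1:**
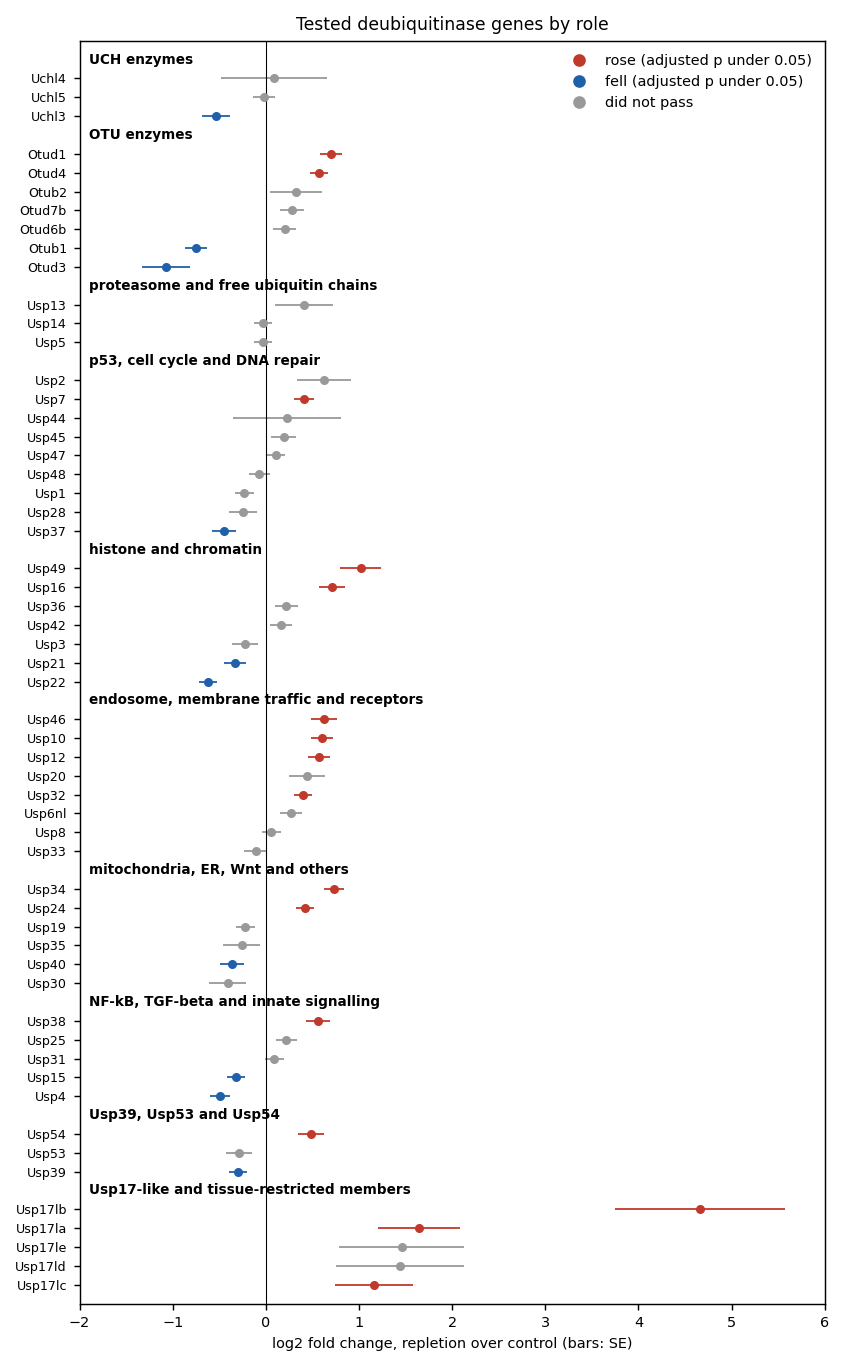
Each point is the log2 fold change (repletion over control) of 1 tested gene with its standard error, grouped by role, in red where it rose, blue where it fell and grey where it did not pass. Most changes lie between -1.07 (Otud3) and 1.02 (Usp49), and the Usp17-like genes at the bottom reach 4.66 (Usp17lb).

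The genes were long, with a median feature length of 6145 bases against 4482 for tested protein-coding genes. Among protein-coding genes of this comparison, 37.1% of the longest of 5 length bins rose and 11% fell, while 10.7% of the shortest bin rose and 26.6% fell. The longest bin held 23 of the 56 deubiquitinase genes, of which 10 rose and 4 fell. All 10 genes that fell also passed with the trend removed. Of the 16 that rose, 12 passed with it removed, and Usp7, Usp24, Usp32 and Usp54 did not. Over all features, too, rises were fewer and falls more frequent in that fit (16.2% and 25.9%, against 20.5% and 19.2%).

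**Figure D2:**
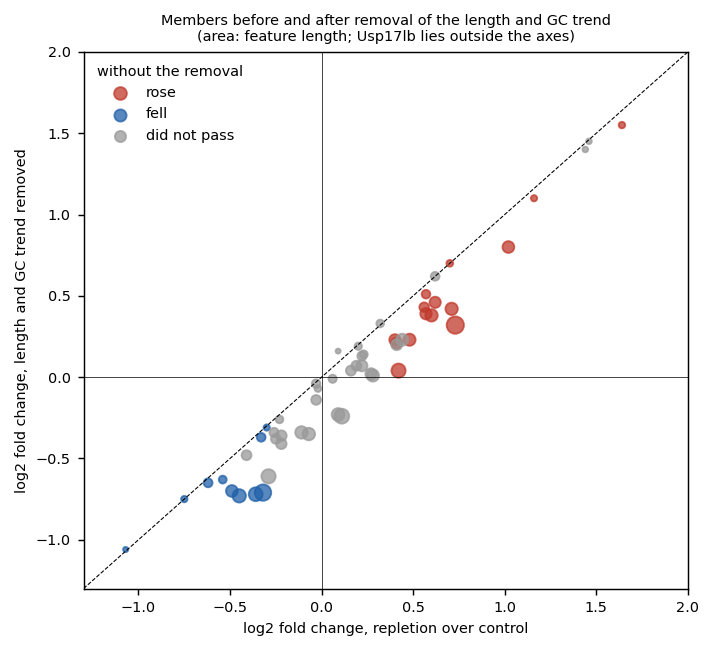
Log2 fold change (repletion over control) of each tested gene as measured on the x axis and with each library's trend with length and GC content removed on the y axis, with point area for feature length and colour for the call without the removal. Large points lie below the dashed line of equality: Usp34 moves to 0.32 and Usp24 to 0.04, while short genes such as Otub1 (-0.75) and Otud1 (0.70) stay in place.

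The promoters of 4 genes are shown first, because these genes passed in every alternative analysis: Usp12 and Usp46 as close relatives that share partners, and Otud1 and Otub1 as the genes with the highest level per kilobase among those that rose and those that fell in every alternative. Usp12 is outside the naming rule and was chosen after its values were seen. Each is the RefSeq stretch of GRCm38.p6 from 250 bases before to 50 bases after the gene's listed start, printed 5′ to 3′ on the gene's strand. Capitals mark matches, on either strand, to the GC box GGGCGG bound by SP factors, the E-box CACGTG, the ETS core CCGGAAG and the YY1 motif.
Usp12 (chr5:146794907-146795206, minus strand): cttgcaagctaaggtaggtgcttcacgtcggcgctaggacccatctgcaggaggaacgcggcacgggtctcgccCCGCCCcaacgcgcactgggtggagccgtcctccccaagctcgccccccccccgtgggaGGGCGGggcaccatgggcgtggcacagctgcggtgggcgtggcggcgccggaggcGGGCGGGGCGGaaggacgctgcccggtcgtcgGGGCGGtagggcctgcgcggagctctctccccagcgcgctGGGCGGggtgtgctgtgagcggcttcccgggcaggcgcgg
Usp46 (chr5:74068362-74068661, minus strand): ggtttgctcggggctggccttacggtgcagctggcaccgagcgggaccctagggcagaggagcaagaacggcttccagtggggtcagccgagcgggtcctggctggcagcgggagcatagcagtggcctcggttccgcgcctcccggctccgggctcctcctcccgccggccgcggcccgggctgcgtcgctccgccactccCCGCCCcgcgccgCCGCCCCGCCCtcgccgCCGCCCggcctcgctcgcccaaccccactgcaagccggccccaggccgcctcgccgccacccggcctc
Otud1 (chr2:19657481-19657780, plus strand): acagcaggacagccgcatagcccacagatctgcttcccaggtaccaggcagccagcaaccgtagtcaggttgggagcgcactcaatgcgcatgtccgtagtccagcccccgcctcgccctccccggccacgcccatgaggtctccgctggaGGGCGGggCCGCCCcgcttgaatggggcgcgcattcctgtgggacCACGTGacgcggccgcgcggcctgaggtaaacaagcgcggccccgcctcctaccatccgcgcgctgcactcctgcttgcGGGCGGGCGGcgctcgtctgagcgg
Otub1 (chr19:7206235-7206534, minus strand): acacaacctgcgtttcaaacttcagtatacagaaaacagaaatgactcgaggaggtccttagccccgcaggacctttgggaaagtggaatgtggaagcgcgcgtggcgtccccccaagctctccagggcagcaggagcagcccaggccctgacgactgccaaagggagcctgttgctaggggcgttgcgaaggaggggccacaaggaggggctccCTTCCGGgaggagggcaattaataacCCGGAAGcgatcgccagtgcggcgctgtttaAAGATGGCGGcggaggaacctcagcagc
The promoters of the 3 genes that rose hold GC boxes, with matches that partly overlap each other, and Otud1 also holds an E-box. The Otub1 promoter holds ETS cores and 1 YY1 motif, and no GC box. These 4 promoters do not stand for the others. Over all listed promoters, GC boxes were in 9 of 16 of genes that rose and 6 of 8 of genes that fell.

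A RefSeq promoter was listed for 48 of the 61 genes. At least 1 GC box was found in 64.6% of them, 9 of 16 promoters of genes that rose, 6 of 8 of genes that fell and 15 of 20 of tested genes that did not pass. Among 27025 promoters of the same length, 1 per gene, 35.9% held 1. This wider set was not limited to protein-coding genes or to genes expressed in these cells. The median GC content was 64.7% for the 48 promoters and 52.7% for all. The CCAAT box was in 25% of the 48 and 37.9% of all promoters, and the ETS core in 16.7% and 9.12%. The E-box was in 14.6% (7 genes) and 7.24%, and the NRF1 motif in 8.33% (4 genes) and 4.78%. The CRE was in 4.17% (2 genes, neither of them tested) and 1.88%. The YY1 motif was in 4.17% (2 genes) and 0.899%, and the ZBTB33 motif in 2.08% (1 gene) and 0.496%. These matches are descriptions of letters in a window, and no binding was measured.

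Among the chosen OTU enzymes, 2 rose, 2 fell and 3 of the 7 tested did not pass. Otub1 lies on chromosome 19 from base 7198202 to 7206316 (GRCm38, minus strand) and binds E2 enzymes such as UBC13, holding back ubiquitin transfer besides cutting K48-linked chains. It had 92.3, 69.7 and 83.4 CPM in repletion, against 132, 136 and 146 CPM in control. Every repletion library was below every control library, and the gene fell (log2 fold change -0.75 ± 0.12 SE, adjusted p = 8.65e-05 by edgeR). Per kilobase it was the third most abundant of the 61 genes, at 43.2 CPM per kilobase over all samples. Ube2n, which encodes UBC13, did not pass (log2 fold change -0.09, adjusted p = 0.493).

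Otud1, a single-exon gene whose enzyme prefers K63-linked chains, moved the other way. Its levels were 139, 141 and 112 CPM in repletion and 88.7, 72.1 and 81.4 CPM in control. The groups did not overlap, with a log2 fold change of 0.70 ± 0.12 (SE, adjusted p = 0.000215). Otud3, another OTU enzyme, was 1 of the less abundant genes. Otud3 had 7.06, 4.09 and 3.59 CPM in repletion, against 11.1, 11.1 and 8.82 CPM in control, and fell by 1.07 ± 0.26 on the log2 scale (SE, adjusted p = 0.00335). Otud4 also rose, with a log2 fold change of 0.57 and an adjusted p of 0.00034. Otud7b, also called Cezanne, which cuts K11-linked chains, had a log2 fold change of 0.28 (adjusted p = 0.103) and overlapping groups.

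Of the chosen UCH genes, Uchl3 fell and Uchl4 and Uchl5 did not pass. Uchl3 encodes a small hydrolase that processes ubiquitin and NEDD8 precursors. It had 17, 22.1 and 18.6 CPM in repletion, against 25.9, 29.1 and 28.7 CPM in control, with no overlap (log2 fold change -0.54 ± 0.15 SE, adjusted p = 0.00781). Of the 100-base windows of Uchl3, 2.24% also occur in Uchl4, a single-exon gene at 0.539 to 1.01 CPM in repletion and 0.636 to 0.825 CPM in control. Uchl1, the abundant neuronal member, had 6, 10 and 8 reads in repletion and 6, 1 and 8 reads in control and was not tested.

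The enzymes that sit at the proteasome or cut free chains gave no call. Usp14, which trims ubiquitin from proteasome substrates, had 180, 204 and 190 CPM in repletion, against 213, 189 and 182 CPM in control (log2 fold change -0.03 ± 0.10 SE, adjusted p = 0.861). Uchl5, which binds the proteasome through ADRM1, had 47.6, 54.4 and 43.4 CPM in repletion and 51.3, 45.9 and 49.8 CPM in control (log2 fold change -0.02, adjusted p = 0.926). The groups overlapped for both. In the annotation, Usp14 overlaps exons of Thoc1 on the other strand, and reads of such a pair cannot be told apart without strand. The annotated coordinates of Usp14 differ from those of the deposited table, so the extent of overlap in the counted model is not given. Psmd14, the metalloprotease of the proteasome lid, and Adrm1 did not pass either (log2 fold changes -0.18 and -0.13, adjusted p = 0.212 and 0.334). Psmd2, the proteasome subunit that binds USP14, fell by 0.29 on the log2 scale with an adjusted p of 0.026, a call lost without repletion replicate 1 or 3 and without control replicate 1 or 3. Usp13, a relative of Usp5, had 5.6, 3.97 and 5.51 CPM in repletion and 2.23, 4.31 and 4.79 CPM in control, and did not pass (0.41, adjusted p = 0.315).

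Among 9 tested genes of the p53, cell cycle and DNA repair group, 1 rose, 1 fell and 7 did not pass. With the length and GC trend removed none rose and 5 fell, in a fit where 16.2% of all features rose and 25.9% fell. Usp1, which removes ubiquitin from PCNA and FANCD2, was the most abundant of the 61 genes, at 93.8 CPM per kilobase. It had 327, 302 and 340 CPM in repletion, against 384, 382 and 366 CPM in control. The groups did not overlap, and the difference did not pass (log2 fold change -0.23 ± 0.10 SE, adjusted p = 0.072), whereas it passed with the length and GC trend removed (-0.26, adjusted p = 0.0266). Of its 100-base windows, 9.66% also occur in the annotated feature Gm5841.

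Usp7, which stabilises both p53 and its ligase MDM2, had 178, 158 and 185 CPM in repletion, against 119, 137 and 135 CPM in control. Every repletion library was above the control libraries and the gene rose (0.41 ± 0.11 SE, adjusted p = 0.00514), a call that ended with the trend removed (0.21, adjusted p = 0.0888). The transcript of Mdm2 was at 348, 330 and 308 CPM in repletion and 535, 515 and 508 CPM in control, and fell (-0.66 ± 0.10 SE, adjusted p = 5.84e-05). Trp53 did not pass (-0.16, adjusted p = 0.293). Usp37, which counteracts degradation of cyclin A, had 46.1, 36.9 and 47 CPM in repletion, against 54.1, 63.5 and 60.2 CPM in control. It fell without overlap (-0.45 ± 0.13 SE, adjusted p = 0.00938). Of 17 substrates and related proteins of USP1, USP7 and USP28, 1 transcript rose (5.88%) and 3 fell (17.6%). Besides Mdm2 these were Pcna (-0.43) and Chek1 (-0.40), which fell, and Rad18 (0.30), which rose, with a call lost with the trend removed and without 5 of the 6 libraries in turn, all but repletion replicate 1. The Chek1 call was lost without repletion replicate 3 or control replicate 1.

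In the histone and chromatin group 2 genes rose, 2 fell and 3 did not pass, and with the trend removed 2 rose and 3 fell. Usp22, the protease of the SAGA coactivator, removes ubiquitin from histone H2B. It had 126, 133 and 133 CPM in repletion, against 182, 221 and 198 CPM in control. All repletion libraries lay below all control libraries, and Usp22 fell by 0.62 ± 0.10 on the log2 scale (SE, adjusted p = 0.000204). Of 18 tested partners of the deubiquitinases described here, 5 rose and 5 fell (27.8% each, against 20.5% and 19.2% of all features). Their median log2 fold change was -0.08, and the SAGA module held both directions. Atxn7l3, the adaptor that activates the protease, had 47.6, 67.4 and 69.2 CPM in repletion, against 30.7, 30.9 and 30.7 CPM in control, and rose (1.00 ± 0.14 SE, adjusted p = 4.37e-05). The anchor Atxn7 rose by 0.56 on the log2 scale, its relative Atxn7l1 by 0.68 and the Atxn7l3 relative Atxn7l3b by 0.67. Atxn7l2 fell by 0.73, a call lost without repletion replicate 2 or 3 or control replicate 2 or 3, and Eny2, the small shared subunit, did not pass (0.07, adjusted p = 0.684).

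**Figure D3:**
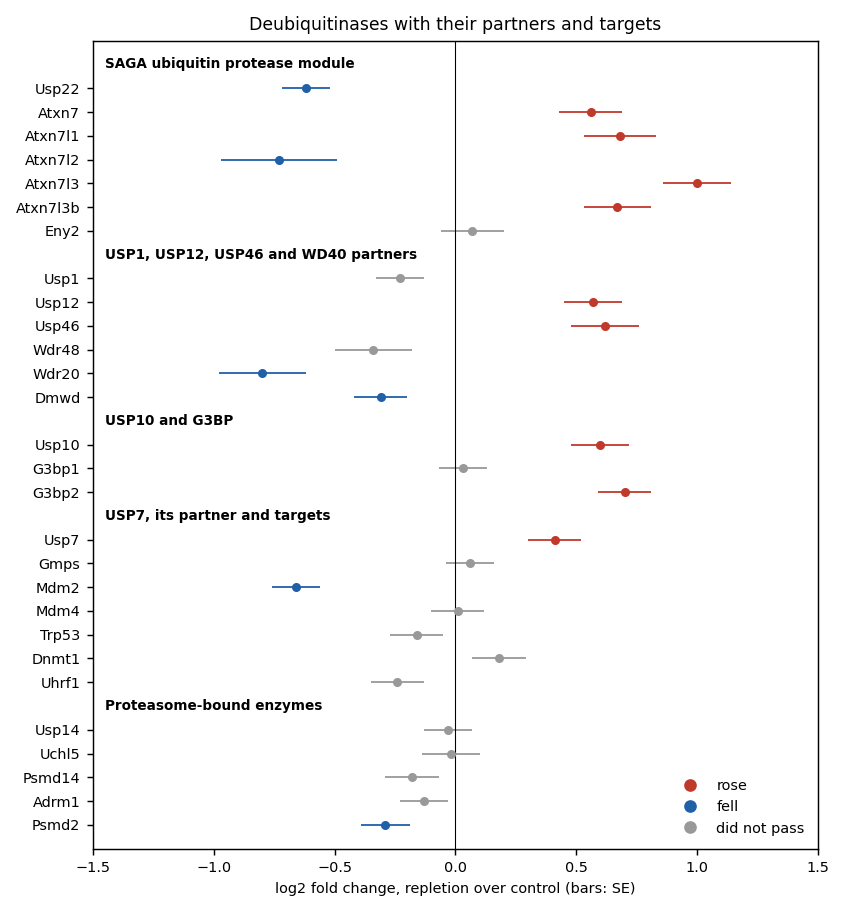
Log2 fold changes (repletion over control) with standard errors for 5 sets of deubiquitinases and their partners or substrates, in red where the gene rose, blue where it fell and grey where it did not pass. Usp22 (-0.62) stands left of 0 with Atxn7l3 (1.00), Atxn7 and Atxn7l1 on the right, Usp12 and Usp46 stand right of 0 with Wdr20 (-0.80) on the left, and Usp14 and Uchl5 lie at 0.

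Usp16 and Usp49, which act on ubiquitinated histones H2A and H2B, rose. Usp16 had 50.7, 45.3 and 44.3 CPM in repletion, against 31.7, 30.6 and 23.5 CPM in control (0.71 ± 0.14 SE, adjusted p = 0.000691). Usp49 had 10.6, 10.3 and 16 CPM in repletion, against 6.04, 5.65 and 6.52 CPM in control (1.02 ± 0.22 SE, adjusted p = 0.00149). Neither gene had overlapping groups. The Usp49 count is uncertain, because 50.6% of its 100-base windows also occur in Gm20517, which overlaps it on the same strand. Usp21, an H2A protease, had 36.7, 38.6 and 32 CPM in repletion and 46.6, 44.1 and 44 CPM in control, and fell (-0.33 ± 0.12 SE, adjusted p = 0.0432). That call ended without repletion replicate 3 and without each of control replicates 1, 2 and 3 in turn, with adjusted p between 0.0733 and 0.183, and with library size alone as scaling (0.102).

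The genes grouped under endosome, membrane traffic and receptors gave 4 that rose, none that fell and 4 that did not pass, with a median log2 fold change of 0.42 over the 8. With the length and GC trend removed, 3 rose, 1 fell (Usp33, -0.34, adjusted p = 0.0185) and the median was 0.23. Usp46 and Usp12 encode paralogous enzymes that need the WD40 proteins WDR48 and WDR20 for activity, and their longest reading frames are 76.6% identical. Usp46 had 41.3, 53.6 and 61.1 CPM in repletion, against 33.7, 33.1 and 34.6 CPM in control (0.62 ± 0.14 SE, adjusted p = 0.00216). Usp12 had 71.7, 85.2 and 82.5 CPM in repletion, against 56.9, 49 and 55.2 CPM in control (0.57 ± 0.12 SE, adjusted p = 0.000955). Both rose with no overlap between the groups. Their partner Wdr20 had 16.6, 11 and 18.6 CPM in repletion, against 25.9, 23.7 and 30.6 CPM in control, and fell (-0.80 ± 0.18 SE, adjusted p = 0.00233). Wdr48, which also activates USP1, did not pass (-0.34, adjusted p = 0.0922), but fell with the trend removed (-0.60, adjusted p = 0.0029). The related Dmwd fell by 0.31, with an adjusted p of 0.027 that passed in 9 of 15 alternatives and was lost without repletion replicate 2 or 3 or control replicate 1 or 3.

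Usp10, which binds the stress granule proteins G3BP1 and G3BP2 and acts on p53 and endosomal cargo, rose. It had 73.8, 60.9 and 66.2 CPM in repletion, against 44.2, 47.4 and 40.9 CPM in control (0.60 ± 0.12 SE, adjusted p = 0.000818). G3bp2 rose too (0.70 ± 0.11 SE, adjusted p = 0.000102), with 23.7% of its exon bases overlapping Gm26582 on the other strand, and G3bp1 did not pass (0.03, adjusted p = 0.818). Usp8, which protects receptors from lysosomal sorting together with the STAM proteins, had 132, 133 and 129 CPM in repletion and 121, 138 and 119 CPM in control. The groups overlapped (0.06 ± 0.10 SE, adjusted p = 0.687). Stam, 1 of its adaptors, fell by 0.53 on the log2 scale, with an adjusted p of 0.000914. Usp6nl had 60.1, 65 and 65.7 CPM in repletion, against 51.3, 59.2 and 47.9 CPM in control, and did not pass (0.27, adjusted p = 0.0783).

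**Figure D4:**
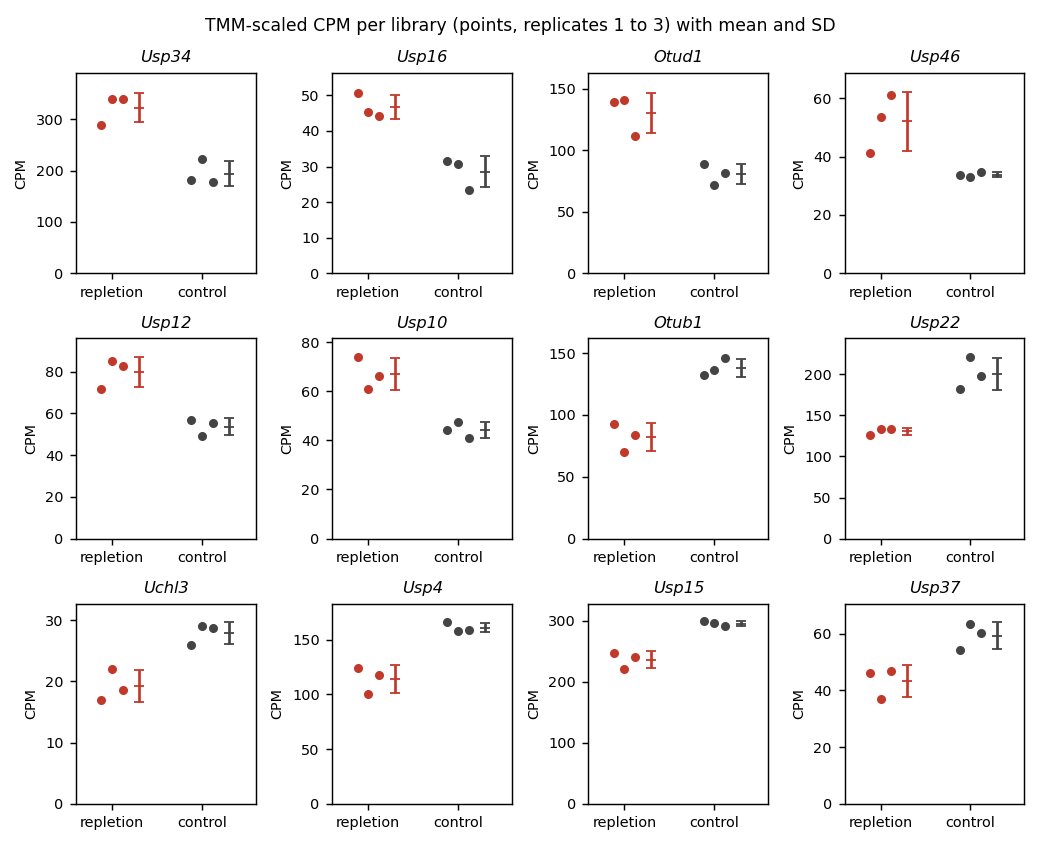
TMM-scaled CPM of 12 genes in each library (points, replicates 1 to 3 from left to right) with the mean and SD beside them, repletion in red and control in grey, each axis starting at 0. The libraries of the groups do not overlap in any panel, with repletion above control in the first 6 panels and below it in the last 6.

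In the group with roles in NF-kB, TGF-beta and innate signalling, 1 gene rose, 2 fell and 2 did not pass. Usp15, which acts on TGF-beta receptors, had 247, 221 and 241 CPM in repletion, against 300, 296 and 291 CPM in control. Usp4, its close paralogue, had 124, 100 and 118 CPM in repletion, against 166, 158 and 159 CPM in control. Both fell with no overlap (Usp15 -0.32 ± 0.10 SE, adjusted p = 0.0134, and Usp4 -0.49 ± 0.11 SE, adjusted p = 0.00153). With the trend removed both log2 fold changes were larger in size, -0.71 and -0.70. Usp38 rose by 0.56, with 20.5% of its exon bases overlapping Gm9725 on the other strand. Usp25, an enzyme of TRAF signalling, had 81, 80.6 and 78 CPM in repletion, against 73.7, 69.6 and 62.7 CPM in control, and did not pass (0.22 ± 0.11 SE, adjusted p = 0.119).

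The 6 remaining genes with varied roles, mitochondria, ER and Wnt signalling among them, gave 2 that rose and 1 that fell, and with the trend removed 1 that rose and 3 that fell. Usp34, a large enzyme acting on axin in Wnt signalling, had 289, 339 and 339 CPM in repletion, against 181, 222 and 178 CPM in control. It rose without overlap (0.73 ± 0.11 SE, adjusted p = 8.84e-05), and the log2 fold change was 0.32 with the trend removed (adjusted p = 0.0106). Usp34 has the longest feature of the 61 genes, 18453 bases, and 11.6% of its exon bases overlap Ahsa2 on the other strand. Usp40 had 29.8, 30 and 30 CPM in repletion, against 35.1, 39.3 and 40.7 CPM in control, and fell (-0.36 ± 0.13 SE, adjusted p = 0.031). That call ended without repletion replicate 3, control replicate 2 or control replicate 3, and with library size alone as scaling (adjusted p = 0.0726), and the log2 fold change was -0.72 with the trend removed. Usp30, the outer mitochondrial membrane enzyme that opposes mitophagy, had 15.6, 10.1 and 16.5 CPM in repletion and 14.5, 21.3 and 20.4 CPM in control. The groups overlapped and the difference did not pass (-0.41 ± 0.20 SE, adjusted p = 0.115). Usp30 did pass in 2 of 15 alternatives, with the trend removed (-0.48, adjusted p = 0.0496) and without control replicate 1 (adjusted p = 0.0374).

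Usp39, a spliceosome protein without protease activity, was the second most abundant gene per kilobase, at 49.5 CPM per kilobase. It had 106, 105 and 114 CPM in repletion, against 131, 131 and 139 CPM in control, and fell (-0.30 ± 0.10 SE, adjusted p = 0.0223). The call was lost without control replicate 3 (adjusted p = 0.0899) and with library size alone as scaling (0.0605). Other genes that rose were Usp24 (log2 fold change 0.42), Usp32 (0.40) and Usp54 (0.48), which like Otud4 and Usp38 lie outside the naming rule and were picked with their values known. The Usp54 call was also lost without repletion replicate 3 or control replicate 1. Usp32 had an adjusted p of 0.0521 and Usp24 of 0.707 with the trend removed.

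The Usp17-like genes are rodent deubiquitinase genes, first known as Dub genes induced by cytokines in blood cells, that lie in a pair of clusters on chromosome 7. They are shown by a stretch of 60 bases of the longest reading frame around the catalytic cysteine, because shared stretches bear on how reads can be assigned. This stretch is more alike among the genes than most of the whole reading frames, whose identity follows. Capitals mark the positions that differ among the 5 genes, and 58 of the 60 are the same in all.
Usp17la: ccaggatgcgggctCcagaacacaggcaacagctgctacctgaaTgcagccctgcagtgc
Usp17lb: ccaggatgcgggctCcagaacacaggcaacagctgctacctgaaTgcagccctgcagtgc
Usp17lc: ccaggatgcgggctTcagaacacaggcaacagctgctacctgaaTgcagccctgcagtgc
Usp17ld: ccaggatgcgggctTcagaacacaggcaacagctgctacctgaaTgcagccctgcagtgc
Usp17le: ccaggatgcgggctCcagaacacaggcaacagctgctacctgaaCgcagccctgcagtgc
The reading frames of Usp17lc and Usp17ld were 98.4% identical and those of the other pairs 78.4% to 90.8%. Of the 100-base windows, 39.5% of Usp17ld, 32.3% of Usp17lc, 10.6% of Usp17lb, 8.73% of Usp17le and 3.83% of Usp17la occur in another gene, so counts of these genes are uncertain.

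Usp17la had 413, 86 and 102 reads in repletion, against 46, 81 and 59 reads in control. Usp17lb had 157, 10 and 27 reads in repletion, against 1, 4 and 2 reads in control. It came through the filter on low counts only by its repletion reads, and its mean log2 CPM of 1.09 lay close to the naming limit of 1. Usp17lc had 151, 43 and 60 reads in repletion, against 22, 40 and 49 reads in control. Repletion replicate 1 was the highest library for all 3 genes, and the groups of Usp17la and Usp17lb did not overlap while those of Usp17lc did. The 3 genes passed the threshold, with log2 fold changes of 1.64 ± 0.44 (SE, adjusted p = 0.00666), 4.66 ± 0.91 (SE, adjusted p = 0.000681) and 1.16 ± 0.42 (SE, adjusted p = 0.0353).

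Usp17ld had 92, 12 and 19 reads in repletion, against 14, 24 and 5 reads in control. Usp17le had 199, 31 and 10 reads in repletion, against 35, 20 and 29 reads in control. Repletion replicate 1 was again highest, the groups overlapped, and neither gene passed (adjusted p = 0.108 and 0.0933). The 5 genes together had 1012 reads in repletion replicate 1, 182 and 218 reads in the other repletion libraries, and 118, 169 and 144 reads in control. Without repletion replicate 1, the log2 fold change of Usp17lb was 2.90 and passed (adjusted p = 0.0147). Those of the others without it were 0.59 for Usp17la (adjusted p = 0.146), 0.48 for Usp17lc (0.401), 0.08 for Usp17ld (0.945) and -0.44 for Usp17le (0.6). The Usp17lc call was also lost without control replicate 1 or 2, and by limma-voom (adjusted p = 0.0766). DESeq2 gave Usp17la an adjusted p of 0.0601. Repletion replicate 1 also had the most features with a read (22130) and the highest tubular marker sum (14.6 CPM), whose part in these counts was not tested.

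**Figure D5:**
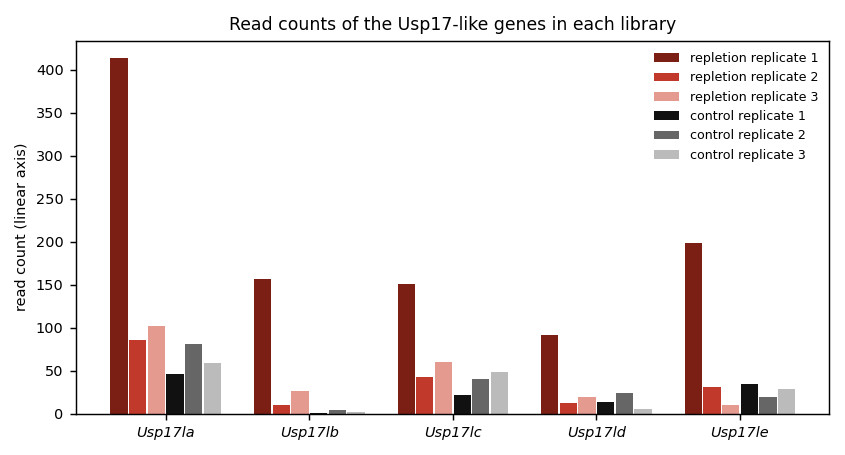
Read counts of the 5 Usp17-like genes in each library on a linear axis, repletion replicates 1 to 3 in reds and control replicates 1 to 3 in greys. Repletion replicate 1 is the tallest bar for every gene, from 92 reads for Usp17ld to 413 for Usp17la, and Usp17lb has at most 4 reads in control.

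Usp29, Usp43, Usp50 and Otud7a had too few reads to be tested, and Usp29 had none in any library. Their counts were 0 to 10 in repletion and 0 to 8 in control. At these depths a change in them was not detectable. By level, the 6 most abundant genes per kilobase were Usp1, Usp39, Otub1, Otud1, Usp22 and Usp14, from 93.8 to 32.3 CPM per kilobase averaged over all samples. Usp1 stood clear of the rest, at 86.4 ± 5.19 CPM per kilobase in repletion and 101 ± 2.79 in control (SD, n = 3 each). Usp39 was at 44.3 ± 2.15 in repletion and 54.7 ± 1.91 in control. In repletion Otud1 stood at 46.2 ± 5.71 and Otub1 at 32.1 ± 4.47 CPM per kilobase, while in control Otud1 stood at 28.5 ± 2.94 and Otub1 at 54.2 ± 2.79. Within repletion, Otud1 and Usp39 differed by less than their SD, as did Otub1 and Usp14 (32 ± 2). In control Otub1 and Usp39 differed by less than theirs.

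Summed over the 61 genes, the reads made up 0.48%, 0.471% and 0.476% of the library in repletion, against 0.42%, 0.453% and 0.421% in control. The repletion libraries were all above the control libraries (exact two-sided permutation test, p = 0.1, the smallest that 3 against 3 allows). The difference of the means was 0.0443 percentage points, and 0.0253 with TMM-scaled library sizes. Fewer cells of a type and less RNA per cell cannot be told apart in such bulk samples.

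The authors' deposited table, read at a deposited adjusted p under 0.05, called 15 of the genes higher and 10 lower. Of these, 24 were called the same way here and 3 genes were called in only 1 of the analyses. Usp1 was called lower only in the deposited table (deposited adjusted p = 0.0494). Usp21 and Usp17la were called only here (deposited adjusted p = 0.0556 and 0.079).

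Other parts of the ubiquitin system gave calls in both directions. Of 25 deubiquitinases and related genes outside the choice by symbol, 4 rose (16%) and 6 fell (24%), with a median log2 fold change of -0.03. Over all tested features 20.5% rose and 19.2% fell. Some of the 25 belong to the USP, OTU and UCH families too, Cyld and Tnfaip3 among them. The smallest p values in each direction belonged to Pan2, whose protein belongs to a deadenylase complex and carries an inactive USP-like domain (0.89 ± 0.15 SE, adjusted p = 0.000238), and Mpnd, a JAMM family gene (-0.75 ± 0.13 SE, adjusted p = 0.000209). The translation initiation subunits Eif3f and Eif3h, which share the JAMM-related fold, fell by 0.59 and 0.60 on the log2 scale. Cyld and Tnfaip3, regulators of NF-kB, did not pass (0.07 and 0.30, adjusted p = 0.627 and 0.263).

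Of 32 E2 enzymes, 4 rose (12.5%) and 6 fell (18.8%). With the trend removed 3 rose and 10 fell, in a fit where 16.2% of all features rose and 25.9% fell. Birc6, a very large enzyme that joins E2 and E3 functions, rose (0.63, adjusted p = 0.0011), but not with the trend removed (0.05, adjusted p = 0.711). Ube2l6 and Uba7, the E2 and E1 of the ubiquitin-like modifier ISG15, fell by 0.69 and 0.62. Of 9 ubiquitin and E1 genes none rose and 2 fell, Uba7 and Ubb, and with the trend removed none rose and 4 fell. Of Ubb, 49.8% of the 100-base windows also occur in other features. Among 9 proteases of SUMO and NEDD8, 4 rose and 1 fell, and with the trend removed 3 rose and 3 fell. Senp1, which matures and removes SUMO, had 112, 106 and 117 CPM in repletion, against 45.5, 52 and 51 CPM in control. It rose without overlap (1.18 ± 0.11 SE, adjusted p = 6.21e-07), and Senp8, the NEDD8 protease, fell (-0.93 ± 0.20 SE, adjusted p = 0.00148).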

How the data were processed

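RNA was extracted with TRIzol, per the labels' protocols. The submitters' processing notes name HISAT2 2.0.5, featureCounts 1.5.0-p3, DESeq2 1.20.0 and GRCm38.p6. The strand setting is not given in the sources used here, nor is the annotation release. The authors deposited raw read counts per feature. They also deposited FPKM, group means of normalized counts as a signal, log2 fold changes (repletion over control by their sign against the counts) and p-values, per the file headers. Depth was 15582349 to 17817618 counts.

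Features were filtered with filterByExpr, leaving 13804 of 55232, and tested with edgeR 4.0.16 (glmQLFit, TMM factors 0.97 to 1.03) in R 4.3.3, two-sided, adjusted over all tested features. CPM were scaled by TMM (SD over 3 samples), and marker sums are unscaled. SE was derived from the F statistic. Levels per kilobase use the deposited feature length. Overlaps, windows and GC content came from GENCODE M21 and promoters from RefSeq, both on GRCm38. The test was tried on simulated data.

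The members and lists were chosen with earlier results of these data known. Named genes were the 8 largest rises and 8 largest falls whose mean log2 CPM reached 1, the 6 most abundant per kilobase, a list of well-studied members and all Usp17-like genes. From each other list, counts and the smallest p in each direction were taken. The values of 1 listed gene are not reported here. Other genes named were chosen after their values were seen. Alternatives were DESeq2 1.42.0, limma-voom (limma 3.58.1), RLE or library-size scaling, other filters, protein-coding genes only, a replicate block, removal of each library's length and GC trend (splines with 5 degrees of freedom), and each library left out.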

Additional observations from a re-analysis of the deposited data

How the results depend on the processing

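The replicate numbers were not shown to pair the samples: the correlation of same-numbered samples' deviations from their group means was -0.08, -0.03 and 0.06 for replicates 1 to 3. With the replicate block 15 members rose and 7 fell, while 18% of all features rose and 17% fell. The calls of Usp17lc, Usp21, Usp39 and Usp40 were lost with it (adjusted p = 0.0888, 0.0781, 0.0536 and 0.067).

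Leaving out 1 library at a time gave 14 to 18 members higher, 7 to 10 lower, a median log2 fold change of 0.09 to 0.23 and a difference in the summed share of 0.0388 to 0.055 percentage points. Over all features it gave 2195 to 2765 higher and 1977 to 2745 lower. With the length and GC trend removed, 19 members fell and the median was 0.04, while 25.9% of all features fell and their median was -0.09. Without repletion replicate 1 the median was 0.09, and without control replicate 3 it was 0.12. Without the 5 Usp17-like genes, an alternative chosen after seeing the data, the median was 0.11, with 13 members higher and 10 lower.

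Of the 26 members past the threshold, 16 passed in all 15 alternatives (9 higher and 7 lower). None of these 26 changed direction in any of them. Usp47, which did not pass (0.11), fell with the trend removed (-0.24, adjusted p = 0.0433). Of 31 named members, 18 kept their call in every alternative in which they were tested, Usp17lb among them. Usp17lb did not pass the filter of 1 CPM in 3 samples and has no value there. Depth limits 3 tested members with a mean log2 CPM under 1 (Usp17ld, Usp44 and Uchl4), where SE of 0.57 to 0.69 leave only large changes detectable.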
